A study of Homo sapiens with 4 samples.

Results

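GATA1 5-13 and GATA1 4-14 are 2 shRNA stable clones of Meg-01, an established human megakaryoblastic leukemia cell line, and their RNA was set against each other here through a control that both shared. The comparison used 4 of the 4 samples of the series, 2 arrays titled for each clone. Each clone carried a lentiviral GATA1 shRNA, had passed puromycin selection and was expanded from a soft agar colony, and the sources used here do not say whether both carried the same shRNA. GATA1 Neg, the control, was not a clone but a pool of Meg-01 cells carrying a lentiviral negative control shRNA. Total RNA of a clone and of GATA1 Neg was labelled with different dyes and hybridized together to 2-colour Agilent whole human genome oligonucleotide arrays. Replicate 1 of each clone had the knockdown RNA in red and replicate 2 had it in green. The labels name Meg-01 as the source, apart from their extraction text, which speaks of clones of CMK, another megakaryoblastic line.

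GATA1 binds GATA motifs in DNA through its zinc fingers and is required for the maturation of megakaryocytes, erythroid cells, mast cells and eosinophils. In the megakaryocytic lineage it is known to turn on platelet genes and to restrain proliferation, and it works with FLI1, RUNX1 and the cofactor ZFPM1. Megakaryoblastic lines such as Meg-01 stand at an early stage of this lineage and keep erythroid traits.

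For each probe the difference was the mean log2 ratio to GATA1 Neg in GATA1 5-13 minus that in GATA1 4-14, so that a positive value means a higher level in GATA1 5-13. The control RNA cancels in this difference, and a dye effect cancels within each orientation. The 2 arrays of a clone were a dye swap and counted as 1 replicate, so each clone was a single sample, the difference had no test, and the SD given with it covers the 2 dye orientations only (n = 2). A gene was called when the difference was at least 2-fold in the same direction in both orientations and the RNA of the higher clone was well above background on both of its arrays. Over 40974 probes, several of which can share a gene, the differences seen in one orientation followed those in the other with r = 0.91 (Pearson) and rho = 0.74 (Spearman), values that compare arrays of the same 2 clones. The SD of the difference across probes was 0.29, against 0.06 for the spread between the orientations (the SD across probes of 0.5 times their gap). All 4 arrays lay on 1 slide, 0 spots were saturated, and the share of spots well above background lay between 61.6% and 66.4% in the knockdown channel and between 61.9% and 65.8% in the GATA1 Neg channel.

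Among markers of the megakaryocytic lineage, 6 of 11 were well above background on both arrays of GATA1 5-13 (ITGA2B, ITGB3, GP9, GATA1, FLI1 and NFE2) and 7 on both of GATA1 4-14. PF4, a platelet granule chemokine that defines maturing megakaryocytes, was not well above background in any RNA. All 7 erythroid markers were above background in both clones, as were 4 of 5 mast cell and basophil markers in GATA1 5-13 and 5 of 5 in GATA1 4-14. Of the other cell types, 0 of 5 monocyte and neutrophil markers were above background on both arrays in GATA1 5-13 and 1 of 5 in GATA1 4-14 (LYZ, with a difference of -1.04). The 2 endothelial and the 3 fibroblast markers were not above background on both arrays in either clone. In both clones 1 of 3 T cell markers (CD3E), 2 of 4 B cell markers (CD79A and PAX5) and 1 of 3 epithelial markers (EPCAM) were above background, and their part in any result was not tested.

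The targeted gene itself set the clones apart only slightly. GATA1 (chromosome X, 48535797 to 48536559 of hg18) stood at log2 ratios to GATA1 Neg of -0.21 and -0.34 in GATA1 5-13 and -0.43 and -0.58 in GATA1 4-14, replicate 1 first. All 4 values lay below the control, and both arrays of GATA1 4-14 lay below both of GATA1 5-13. The difference was 0.23 ± 0.01 (SD, n = 2 dye orientations) on the log2 scale, a 1.17-fold higher level in GATA1 5-13, and it lay under the threshold. In RNA from whole cultures, fewer cells that express a gene and less RNA per cell cannot be told apart, here or for any gene that follows.

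At least 2-fold differences were called for 172 probes higher in GATA1 5-13, 0.42% of those tested, and for 282 probes higher in GATA1 4-14, 0.688%. With 1 probe per gene, the brightest, 107 of 17755 genes were called higher in GATA1 5-13 (0.603%) and 164 higher in GATA1 4-14 (0.924%). At 1.5-fold the counts were 399 (2.25%) and 516 (2.91%). The difference was above 0 in both orientations for 41.0% of genes and below 0 in both for 38.1%. Just inside the threshold lay H2AC6, with differences of 1.00 and 1.06 in the 2 orientations, and MMP1, with -1.01 and -1.02. Just outside lay HMGCS1, with 1.07 and 0.998, and PLAAT1, with -1.02 and -0.999.

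**Figure D1:**
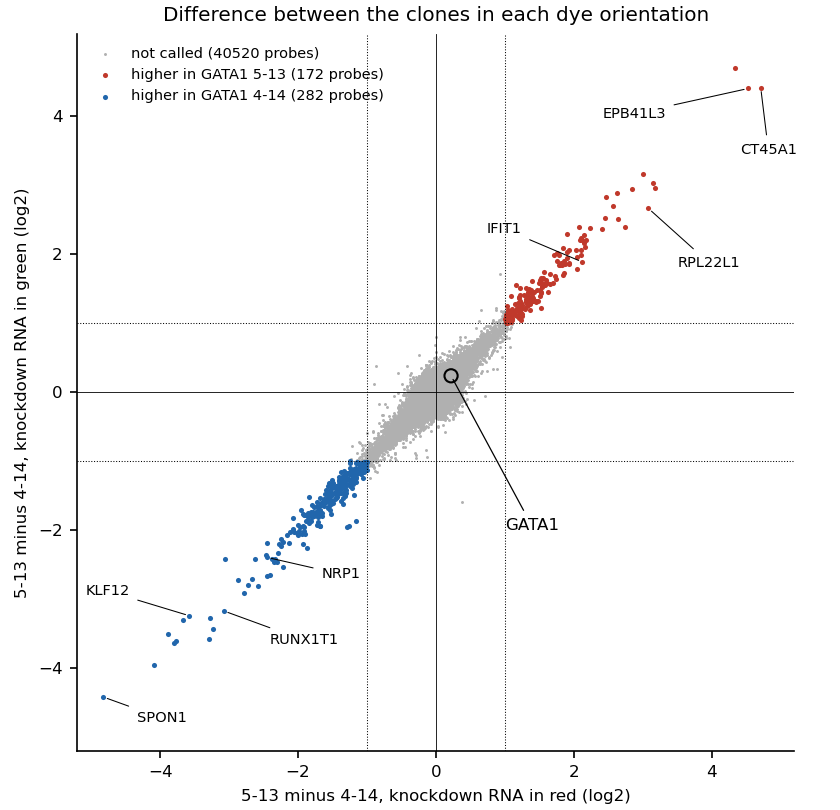
Difference between the clones (log2, GATA1 5-13 minus GATA1 4-14) with the knockdown RNA in red (x axis) against the same with it in green (y axis), 1 point per probe for 40974 probes, with the 172 and 282 called probes coloured, dotted lines at 2-fold and GATA1 circled. The called probes run along the diagonal out to beyond 4 on the log2 scale, and GATA1, at 0.22 and 0.24, lies in the central cloud.

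Each called gene was also placed by where the clones stood relative to GATA1 Neg, with a log2 ratio of at least 1 in size taken as departing from the control and one under 0.5 as near it. Of the 107 genes higher in GATA1 5-13, 48 departed from the control in GATA1 5-13 alone and 7 in GATA1 4-14 alone. Clones were counted as on opposite sides or on the same side where both ratios were at least 0.5 in size. There were 21 such genes on opposite sides and 8 on the same side. Of the 164 genes higher in GATA1 4-14, the counts were 55 for GATA1 5-13 alone, 40 for GATA1 4-14 alone, 28 on opposite sides and 22 on the same side. The remaining 23 and 19 genes fell between these limits. Over all probes, the log2 ratios to the control had an SD of 0.29 in GATA1 5-13 and 0.20 in GATA1 4-14.

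**Figure D2:**
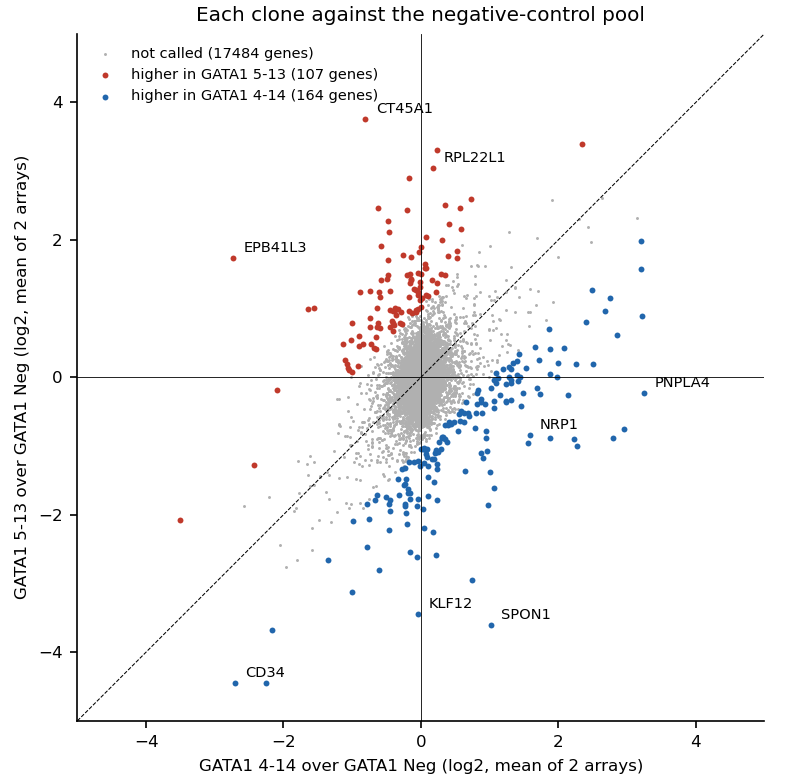
Log2 ratio to GATA1 Neg in GATA1 4-14 (x axis) against that in GATA1 5-13 (y axis), 1 point per gene for 17755 genes, each the mean of 2 arrays. The dashed line marks equal ratios, and the 107 genes called higher in GATA1 5-13 and the 164 called higher in GATA1 4-14 lie on either side of it, many of them near 0 on one axis and far from 0 on the other.

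Where a clone was not well above background on either of its arrays, its level has only a bound. Such a fold is written as at least N-fold: the brighter clone's level was divided by the dim clone's signal or, if greater, by the weakest signal among probes that passed the background criterion, each channel having been normalized by loess and Aquantile. For EPB41L3, SLC6A15 and PNPLA4 the value found this way exceeded the fold from the ratios, so only the latter is given for them, with no bound.

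The largest difference in favor of GATA1 5-13 was that of CT45A1, a cancer-testis antigen gene normally silent outside the germ line. Its log2 ratios to GATA1 Neg were 3.73 and 3.79 in GATA1 5-13 and -0.98 and -0.63 in GATA1 4-14, a difference of 4.57 ± 0.21 (SD, n = 2 dye orientations). The control RNA thus lay between the clones, above background on all 4 arrays. CT45 genes are near-identical copies whose RNA can share a probe, so the copy is uncertain. EPB41L3, which encodes a membrane skeleton protein of the band 4.1 family, had log2 ratios of 1.70 and 1.76 in GATA1 5-13 and of -2.83 and -2.64 in GATA1 4-14. The difference was 4.47, and GATA1 4-14 was not above background.

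NLRP5, known from the oocyte, had log2 ratios of 3.47 and 3.15 in GATA1 5-13 against 0.29 and 0.18 in GATA1 4-14. RPL22L1, a paralog of the ribosomal protein gene RPL22, had 3.12 and 2.97 against 0.04 and 0.31. Both were at or near the control level in GATA1 4-14 and above it in GATA1 5-13. PTN, a secreted heparin-binding growth factor, had log2 ratios of 0.85 and 1.14 in GATA1 5-13 and of -1.72 and -1.56 in GATA1 4-14, and CD24, a glycosylated surface protein, had 1.20 and 0.82 against -1.54 and -1.58. CH25H, which makes 25-hydroxycholesterol and is induced by interferon in many cells, had 1.81 and 2.02 against -0.64 and -0.52. For these 3 genes the clones lay on opposite sides of the control on every array. The CD24 probe also matches near-identical pseudogene copies.

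Among the other genes of the highest 12 by difference, KCNC2, a voltage-gated potassium channel, had a level at least 7.4-fold higher in GATA1 5-13, CLCA1 at least 6.19-fold, LGSN at least 5.39-fold and GBA3, a cytosolic beta-glucosidase, at least 5.32-fold. A second KCNC2 probe, not well above background on any clone array, had a difference of -0.01. FAM83A had a difference of 2.58 with 2 of 2 probes called. Below the first 12, AQP3, a water and glycerol channel, had a difference of 2.13 with 2 of 2 probes called, and its clones lay on opposite sides of the control.

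The largest difference in favor of GATA1 4-14 was that of SPON1, which encodes the secreted matrix protein F-spondin. Its log2 ratios to GATA1 Neg were -3.75 and -3.47 in GATA1 5-13 and 1.07 and 0.95 in GATA1 4-14, a difference of -4.62 ± 0.28 (SD, n = 2 dye orientations). GPC6, a heparan sulfate proteoglycan of the cell surface, had -3.15 and -2.76 in GATA1 5-13 against 0.74 and 0.75, with 2 of 2 probes called. KLF12, a transcriptional repressor of the Krüppel-like family, had -3.57 and -3.32 against 0.01 and -0.08 and was at least 8.83-fold higher in GATA1 4-14. In all 3 genes GATA1 5-13 lay more than 2 log2 units below the control, while GATA1 4-14 was at or up to about 1 unit above it.

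Other genes were set apart by a high level in GATA1 4-14. SLC6A15, a transporter of neutral amino acids, had log2 ratios of -0.82 and -0.69 in GATA1 5-13 and of 2.98 and 2.95 in GATA1 4-14, a difference of -3.72 with GATA1 5-13 not above background, and 4 of 4 probes were called. WASF3, an actin regulator of the WAVE family, had -0.93 and -0.84 against 2.83 and 2.77. PNPLA4, a lipid hydrolase, had -0.23 and -0.23 against 3.44 and 3.07, an 11.2-fold difference of the ratios, with GATA1 5-13 not above background. SEMA6D, a transmembrane semaphorin, had -1.01 and -0.99 against 2.27 and 2.29. RUNX1T1, the corepressor known as the fusion partner of RUNX1 in leukemia, had -0.90 and -0.88 against 2.17 and 2.29. The second probes of SEMA6D and RUNX1T1 differed by -0.37 and -0.19, but were not well above background on any clone array.

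The rest of the highest 12 in this direction were GZMA, a protease of cytotoxic granules, with a difference of -2.85, ZC4H2 with -2.79, LUM, a matrix proteoglycan, at least 4.86-fold higher in GATA1 4-14, and NAP1L3, a nucleosome assembly protein, at least 6.1-fold higher. Further called genes chosen after their values were seen were BASP1 with -2.56, MAOB with -2.42, the sphingosine 1-phosphate receptor S1PR1 with -2.11, PLEK, the main protein kinase C substrate of platelets, with -2.07, and EIF2S3 with -2.04.

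**Figure D3:**
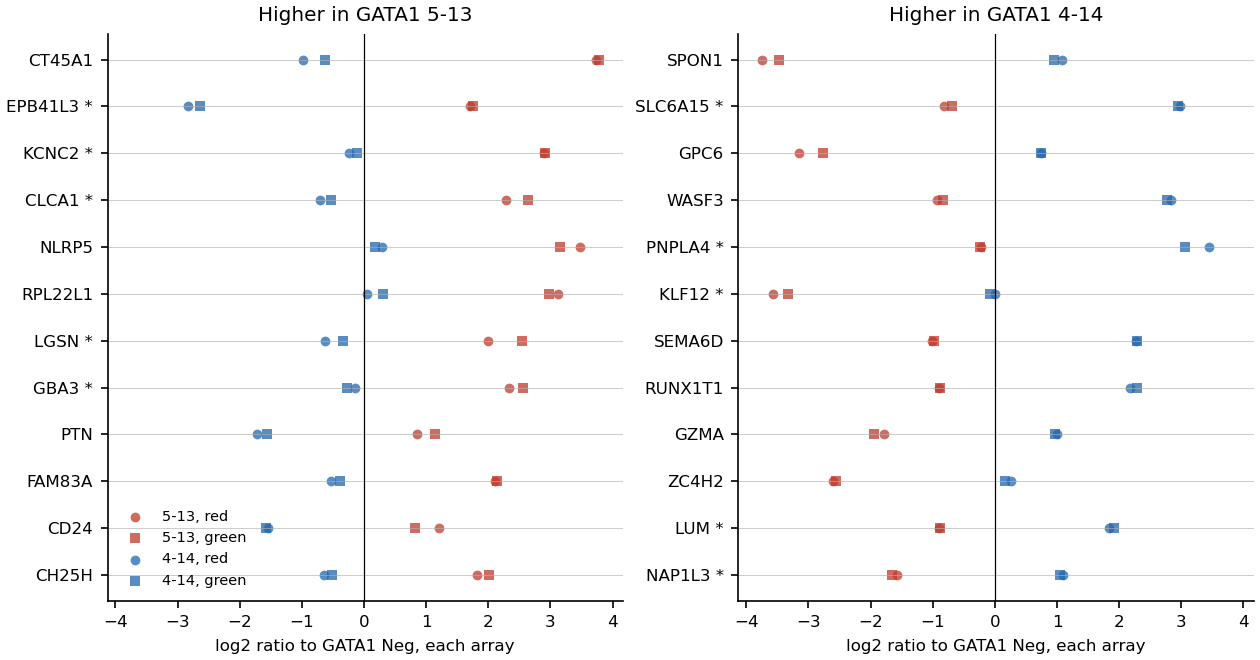
Log2 ratio to GATA1 Neg on each array for the 12 genes with the largest called difference in each direction, with GATA1 5-13 in red, GATA1 4-14 in blue, circles for arrays with the knockdown RNA in red and squares for those with it in green, and an asterisk for genes where 1 clone was not well above background on either array. The 2 arrays of a clone lie close together, and the clones are at least 2.49 apart in every gene.

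Among lineage genes, few members were called. Over all genes, 0.603% were called higher in GATA1 5-13 and 0.924% higher in GATA1 4-14. Of 30 platelet surface receptors and glycoproteins, 0 were called higher in GATA1 5-13 and 1 in GATA1 4-14, with a median difference of -0.07. That gene was GP1BA, the platelet receptor for von Willebrand factor. Its log2 ratios were -1.77 and -1.59 in GATA1 5-13 and -0.21 and -0.12 in GATA1 4-14. Its second probe, not well above background on any clone array, differed by -0.10. The integrin genes ITGA2B and ITGB3 differed by -0.20 and -0.30. Of 37 platelet granule proteins, 0 were called higher in GATA1 5-13 and 2 in GATA1 4-14. LTBP1, which binds latent TGF-beta, had -2.97 and -2.65 against -0.76 and -0.47, and F13A1, the A subunit of coagulation factor XIII, differed by at least 2.26-fold in the same direction. FLI1, a partner of GATA1 at platelet genes, had -0.80 and -0.56 in GATA1 5-13 against 0.01 and 0.29 in GATA1 4-14 and fell short of the threshold at -0.83.

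Among 23 partners and cofactors of GATA factors, 0 were called in either direction, and GATA2 differed by -0.11. Of 28 mast cell, basophil and eosinophil genes, 22 were lower in GATA1 5-13 in both orientations, against 38.1% of all genes, with a median of -0.17. In this list 0 were called higher in GATA1 5-13 and 2 in GATA1 4-14, against 0.603% and 0.924% of all genes. HPGDS, which makes prostaglandin D2, had log2 ratios of -0.30 and -0.35 in GATA1 5-13 and of 1.36 and 1.24 in GATA1 4-14, and CPA3, the mast cell carboxypeptidase, had 0.74 and 0.67 against 1.92 and 1.81. CPA3 was above the control in both clones, HPGDS in GATA1 4-14 alone.

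Globin genes were higher in GATA1 5-13. Of 9 globin genes, 8 were higher there in both orientations, against 41.0% of all genes, and the median difference was 0.35. Of these genes 1 was called, against 0.603% of all genes. The called gene was HBG1, a fetal globin, with log2 ratios of 1.5 and 0.50 in GATA1 5-13 and of 0.12 and -0.89 in GATA1 4-14. The 2 arrays of a clone lay far apart for this probe, but the difference between the clones was 1.38 in both. HBE1, the embryonic globin, differed by 0.94, the adult globin HBB by 0.65 and HBD by 0.53, while HBA1 and HBA2 differed by 0.24 and 0.22. HBG1 has a near-identical copy in HBG2, as HBA1 has in HBA2, so these pairs cannot be told apart. Of 23 heme and iron genes 1 was called higher in GATA1 5-13, against 0.603% of all genes. It was ALAS2, the erythroid enzyme that starts heme synthesis, with a difference of 1.07. In that list 12 genes were higher in GATA1 5-13 in both orientations and 8 lower, with a median of 0.05. Of 30 red-cell genes 1 was called higher in GATA1 5-13, SPTB, erythroid beta-spectrin, with 1.15, whose 4 probes differed by between 0.26 and 1.15. Here 16 were higher in GATA1 5-13 in both orientations and 11 lower, with a median of 0.03. At 1.5-fold, 3 red-cell genes were higher in GATA1 5-13 and 4 in GATA1 4-14.

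Of 32 stem and progenitor markers, 0 were called higher in GATA1 5-13 and 5 in GATA1 4-14, against 0.924% of all genes, while the median of the list was -0.01. The members were NPR3, ALDH1A1, TIE1, KDR and CD34. NPR3, a receptor for natriuretic peptides, had log2 ratios of -4.61 and -4.30 in GATA1 5-13 and of -2.36 and -2.16 in GATA1 4-14. CD34, the surface sialomucin of blood progenitors, had -4.67 and -4.24 against -2.96 and -2.45 for the called probe, a difference of -1.75. Its other probe was below background in both clones and differed by -0.55. NPR3 and CD34 were thus below the control in both clones and lower still in GATA1 5-13.

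KDR, the main receptor for VEGF, also lay below the control in both clones, with -2.64 and -2.67 against -1.39 and -1.32. TIE1, an angiopoietin co-receptor, and ALDH1A1, an enzyme of retinoic acid synthesis, differed by -1.49 and -1.83 and lay nearer to the control in GATA1 4-14. TIE1 and KDR belong to the list of VEGF and angiopoietin genes too, where 4 of 20 were called higher in GATA1 4-14, against 0.924% of all genes, and 0 in GATA1 5-13. The other members there were NRP1, a co-receptor for VEGF and semaphorins, with -0.89 and -0.78 in GATA1 5-13 against 1.55 and 1.61 in GATA1 4-14, and ANGPT2, a ligand of TEK, with -1.30 and -1.23 against 0.15 and 0.32. TEK itself, the receptor of the angiopoietins, differed by -0.01. The 4 NRP1 probes, of which 3 were well above background on a clone array, differed by between -2.42 and -0.01.

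Some of the genes that were also measured by RT-PCR in these clones differed between them on the arrays. MYCN, a MYC family transcription factor, had a probe with log2 ratios of 0.27 and 0.30 in GATA1 5-13 and of 1.98 and 2.18 in GATA1 4-14, a difference of -1.80, with GATA1 Neg below background on all arrays. A second MYCN probe differed by 0.18. The probes of the gene thus gave opposite directions. IL1A, an inflammatory cytokine, was lower than the control in both clones and at least 1.55-fold higher in GATA1 4-14 than in GATA1 5-13. The 6 probes of MECOM, which holds EVI1, differed by between -0.80 and 0.00. Only 2 of them, with -0.80 and -0.59, were well above background on any clone array. The adhesion gene NCAM1 differed by -0.21, and BCL2L1, which encodes Bcl-xL, by 0.06. Second probes of NCAM1 and BCL2L1, not well above background on any clone array, differed by -0.07 and -0.02.

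Histone genes formed the list with the largest median shift of the 71 examined. The replication-dependent histone genes encode the core and linker histones that package newly made DNA, lie in clusters on chromosomes 6 and 1, and give messages that peak in S phase. Of 65 such genes, 50 were higher in GATA1 5-13 in both orientations and 8 lower, against 41.0% and 38.1% of all genes. Their median difference was 0.58, with a median log2 ratio to GATA1 Neg of 0.61 in GATA1 5-13 and of -0.00 in GATA1 4-14. At least 1.5-fold higher in both orientations were 31 in GATA1 5-13, against 2.25% of all genes, and 0 in GATA1 4-14, against 2.91%. Called higher in GATA1 5-13 were 6, against 0.603% of all genes. They were the linker histones H1-2 with a difference of 1.39, H1-4 with 1.32 and H1-3 with 1.13, and the H2A genes H2AC19 with 1.33, H2AC7 with 1.14 and H2AC6 with 1.03. H1-2 had log2 ratios of 1.29 and 1.47 in GATA1 5-13 against -0.10 and 0.09 in GATA1 4-14.

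The shift was uneven across the histone types. The median difference was 0.79 over 17 H2B genes, of which 16 differed by at least 1.5-fold, 0.70 over 15 H2A genes and 0.63 over 6 H1 genes. It was 0.14 over 14 H4 genes and -0.01 over 13 H3 genes, and H4C3 and H4C2 were lowest at -0.59 each. By cluster, the 54 genes of HIST1 had a median of 0.58 and the 7 of HIST2 had 0.83. Histone genes of 1 type are near-identical and can share probe signal, so that single members are uncertain. Of 52 mitosis and cytokinesis genes, which mark dividing cells by another route, 0 were called and the median was 0.11. In both orientations 41 were higher in GATA1 5-13 and 6 lower, against 41.0% and 38.1% of all genes. Of 46 DNA replication and nucleotide supply genes, 0 were called and the median was -0.01. Here 18 were higher in GATA1 5-13 in both orientations and 20 lower, against the same shares of all genes. The topoisomerase gene TOP2A, a marker of proliferating cells, differed by -0.09.

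Promoters of these genes were read from RefSeq (GRCh38.p14), in windows that run from upstream of each start to just past it, and 60 of the 65 histone genes were matched. The octamer ATTTGCAT, the site known to bind OCT1 at H2B promoters, was found on either strand in 25 of the 60 (41.67%), against 2.19% of 27305 genes of the table. It stood in 11 of 14 H2A genes and 13 of 17 H2B genes, in 1 of 11 H3 genes and in 0 of the H1 and H4 genes. The 25 genes with it had a median difference of 0.77, with 24 above 0 in both orientations. The 35 without it had 0.15, with 25 above 0 in both. A match is a stretch of letters and not a measured binding site, and the octamer goes with the histone type. The 200 bases before the start are shown for H2AC7, which was called, H2BC4, an H2B gene with the octamer, and H3C2, which has none and differed by 0.04, with the octamer in capitals.
H2AC7 (chr6:26199294-26199493, minus strand): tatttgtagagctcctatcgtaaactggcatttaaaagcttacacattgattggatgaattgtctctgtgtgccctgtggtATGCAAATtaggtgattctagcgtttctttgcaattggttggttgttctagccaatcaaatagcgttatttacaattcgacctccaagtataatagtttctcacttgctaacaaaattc
H2BC4 (chr6:26123927-26124126, minus strand): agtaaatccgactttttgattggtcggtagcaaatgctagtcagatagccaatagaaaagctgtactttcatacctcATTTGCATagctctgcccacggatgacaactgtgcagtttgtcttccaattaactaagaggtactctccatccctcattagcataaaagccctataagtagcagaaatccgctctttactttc
H3C2 (chr6:26032100-26032299, minus strand): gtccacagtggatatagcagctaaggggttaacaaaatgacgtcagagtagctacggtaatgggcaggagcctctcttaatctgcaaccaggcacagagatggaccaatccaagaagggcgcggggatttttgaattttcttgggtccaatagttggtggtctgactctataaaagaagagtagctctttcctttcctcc

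Interferon-stimulated genes were higher in GATA1 5-13. These genes are known to be turned on through interferon receptors, and many encode antiviral proteins. Of 49 on the array, 40 were higher in GATA1 5-13 in both orientations and 6 lower, against 41.0% and 38.1% of all genes, with a median difference of 0.28. Of these genes 4 were called higher there and 1 in GATA1 4-14, against 0.603% and 0.924% of all genes. IFIT1, which binds viral RNA, had log2 ratios of 1.53 and 1.32 in GATA1 5-13 and of -0.60 and -0.57 in GATA1 4-14, a difference of 2.01 ± 0.17 (SD, n = 2 dye orientations). Its neighbors IFIT2 and IFIT3 had 1.30 and 1.17 against -0.53 and -0.67, and 0.72 and 0.83 against -0.31 and -0.25. CXCL11, an interferon-induced chemokine, was at least 2.25-fold higher in GATA1 5-13. In all 4 genes GATA1 5-13 lay above the control and GATA1 4-14 below it. XAF1, a proapoptotic interferon-induced gene, differed the other way, with GATA1 4-14 at least 3.37-fold higher.

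The core of the interferon-stimulated response element (GAAA, any 2 bases and GAAA again, on either strand) stood in the promoter windows of 28 of the 39 matched interferon-stimulated genes (71.79%), against 4.38% of all genes of the table. The 28 genes had a median difference of 0.30, with 26 above 0 in both orientations, and the 11 without the core 0.29, with 7 above 0. IFIT1 and IFIT3 are shown, as called genes of one family whose windows each hold the core more than once. Capitals mark the core, which appears here as its reverse complement.
IFIT1 (chr10:89392423-89392622, plus strand): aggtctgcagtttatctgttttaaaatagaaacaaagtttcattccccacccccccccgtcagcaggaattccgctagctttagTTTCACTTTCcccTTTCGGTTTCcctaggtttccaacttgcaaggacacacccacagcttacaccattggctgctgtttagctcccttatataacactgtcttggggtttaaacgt
IFIT3 (chr10:89327797-89327996, plus strand): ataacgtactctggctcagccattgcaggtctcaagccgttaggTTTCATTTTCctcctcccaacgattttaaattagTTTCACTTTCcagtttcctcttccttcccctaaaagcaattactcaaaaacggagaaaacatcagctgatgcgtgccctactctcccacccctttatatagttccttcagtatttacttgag

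Of 61 chemokines and their receptors, 4 were called higher in GATA1 5-13 (CXCL11, already counted above, CCL4, CXCL8 and CCRL2), against 0.603% of all genes, and 0 in GATA1 4-14. The median was 0.05, and 29 were higher in GATA1 5-13 in both orientations, 47.5% against 41.0% of all genes. CCL4, which attracts monocytes and T cells, had log2 ratios of 0.91 and 0.67 in GATA1 5-13 and of -0.95 and -1.05 in GATA1 4-14. CXCL8, which attracts neutrophils, was near the control in GATA1 5-13, at -0.01 and 0.18, and below it in GATA1 4-14, at -1.11 and -0.89, and its second probe differed by 0.08. IL1B, an inflammatory cytokine, lay below the control in both clones and was lower in GATA1 5-13, with a difference of -1.07.

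Genes of cholesterol synthesis were listed with sterol regulators and desaturases. Of these 30 genes, 28 were higher in GATA1 5-13 in both orientations and 2 lower, against 41.0% and 38.1% of all genes. Their transcription is known to be driven by SREBP when cells are short of sterol. The median difference was 0.46, with a median log2 ratio to the control of 0.45 in GATA1 5-13 and 0.01 in GATA1 4-14. At least 1.5-fold higher in GATA1 5-13 were 11 members, against 2.25% of all genes, and 1 was called, against 0.603%. The 1 called member was SCD, the stearoyl-CoA desaturase, with log2 ratios of 1.13 and 1.21 in GATA1 5-13 against -0.23 and -0.12 in GATA1 4-14, and its 3 probes differed by between 1.06 and 1.37. HMGCS1, which makes HMG-CoA, and DHCR7, the last enzyme of cholesterol synthesis, each differed by 1.03 and missed the threshold in 1 orientation. IDI1 differed by 0.85, SQLE, the squalene epoxidase, by 0.81 and INSIG1, which retains the SREBP complex in the endoplasmic reticulum, by 0.63.

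Metallothionein genes, which encode small zinc- and copper-binding proteins, were lower in GATA1 5-13 in 12 of 12 members in both orientations, against 38.1% of all genes. None was called, and 2 were at least 1.5-fold higher in GATA1 4-14, against 2.91% of all genes. The median difference was -0.42, with a median log2 ratio to the control of -0.39 in GATA1 5-13 and 0.02 in GATA1 4-14. MT1F had log2 ratios of -0.89 and -0.79 in GATA1 5-13 against -0.04 and 0.05, and MT2A had -0.78 and -0.83 against -0.13 and -0.23. MT4 was below background throughout. Second probes of MT1E, MT1L and MT3 differed the other way, by 0.05, 0.07 and 0.08. That of MT1L was not well above background on any clone array. The MT1 genes are near-identical and lie next to each other on chromosome 16, so that probes can pick up several of them and the 12 are not separate measurements.

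The core of the metal response element, the site of MTF1, was searched as TGCACNC or TGCGCNC on both strands. It stood in the windows of all 5 metallothionein genes matched, and it is common, found for 33.43% of all genes of the table. MT2A and MT1X are shown because their windows hold 6 and 4 matches, in capitals.
MT2A (chr16:56608384-56608583, plus strand): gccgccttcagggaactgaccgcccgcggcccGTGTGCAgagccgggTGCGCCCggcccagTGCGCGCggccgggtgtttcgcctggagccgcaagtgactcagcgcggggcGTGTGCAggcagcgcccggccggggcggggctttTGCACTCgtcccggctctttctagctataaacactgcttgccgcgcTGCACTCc
MT1X (chr16:56682270-56682469, plus strand): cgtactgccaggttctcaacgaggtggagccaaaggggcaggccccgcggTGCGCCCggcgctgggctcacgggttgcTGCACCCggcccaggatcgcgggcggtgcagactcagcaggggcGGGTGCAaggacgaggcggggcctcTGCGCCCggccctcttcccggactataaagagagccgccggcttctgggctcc

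Ribosomal protein genes were lower in GATA1 5-13 in 78 of 82 members in both orientations, against 38.1% of all genes, by a small amount. Their median difference was -0.23, 0 were called, and 5 were at least 1.5-fold higher in GATA1 4-14, against 2.91% of all genes. Single arrays of a clone differed widely for these bright probes, so that RPL5 read -0.19 and -1.56 relative to the control in GATA1 5-13 and 0.74 and -0.75 in GATA1 4-14, and only the difference within an orientation is stable, at -0.87 ± 0.09 (SD, n = 2 dye orientations). Without the second array of GATA1 5-13 or the first of GATA1 4-14, where the orientations are unequal, the median of the list was 0.26 and 0.27. RPL22, in contrast, was even between orientations, with -0.83 and -0.96 in GATA1 5-13 and 0.10 and 0.04 in GATA1 4-14, and its 4 probes differed by between -1.05 and -0.87. Its paralog RPL22L1 differed by 2.87 in the other direction.

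**Figure D4:**
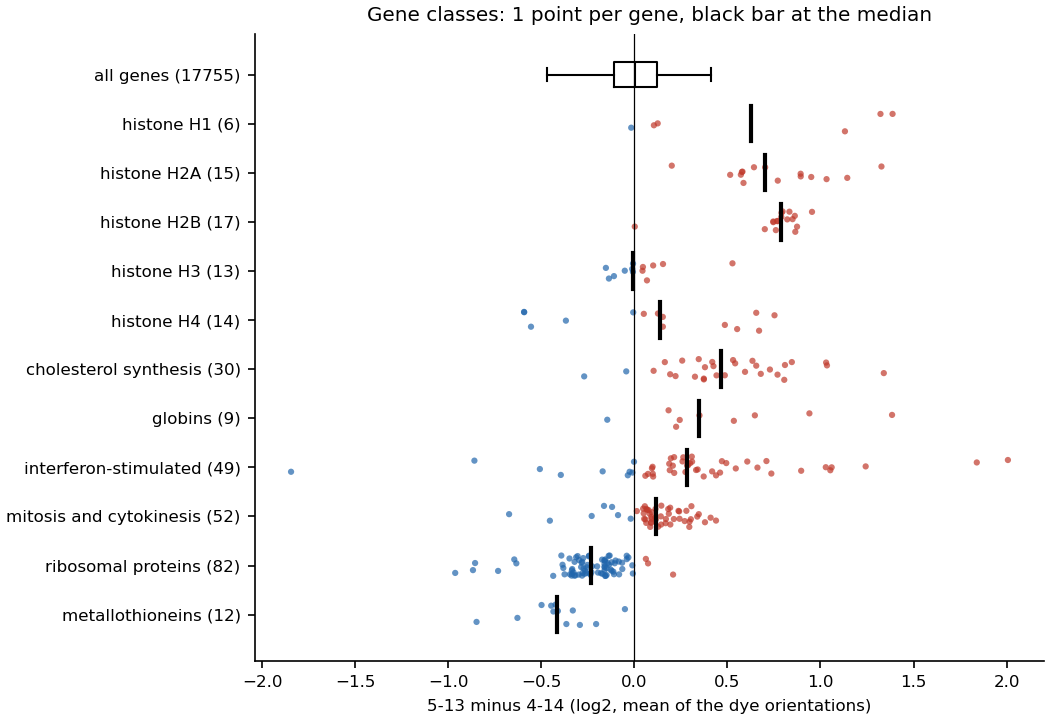
Difference between the clones (log2, GATA1 5-13 minus GATA1 4-14), 1 point per gene, for histone types and other gene classes, with a black bar at the median of each class and, for all 17755 genes, a box whose whiskers reach the 5th and 95th percentiles. H1, H2A and H2B lie mostly above 0 and H3 and H4 around 0, while cholesterol, globin and interferon-stimulated genes lie mostly above 0 and ribosomal protein and metallothionein genes below.

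Other families differed in single members, in both directions, with medians near 0. Of 79 cancer-testis antigen genes, 3 were called higher in GATA1 5-13 and 3 in GATA1 4-14, against 0.603% and 0.924% of all genes. Their median difference was 0.08. Over the list 43 (54.4%) were higher in GATA1 5-13 in both orientations and 18 (22.8%) lower, against 41.0% and 38.1% of all genes. CT45A5 was above the control in both clones, with 3.49 and 3.30 in GATA1 5-13 against 2.41 and 2.27, and GAGE12F was below it in both, with -1.98 and -2.18 against -3.34 and -3.68. VCX3A and VCX were above it in both and higher in GATA1 4-14, with differences of -1.64 and -1.22. MAGEA9 had -1.02 and -0.90 in GATA1 5-13 and 1.60 and 1.52 in GATA1 4-14. All of these lie on chromosome X in families of near-identical copies.

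Ephrin and semaphorin genes guide axons and vessels. Of 51 such genes, 1 was called higher in GATA1 5-13 and 4 in GATA1 4-14, against 0.603% and 0.924% of all genes. SEMA3E had 2.15 and 2.16 in GATA1 5-13 against 0.58 and 0.59, while EPHA8, EFNA5 and EPHA5 were higher in GATA1 4-14 together with SEMA6D. Of 92 potassium channel genes, 1 was called higher in GATA1 5-13, KCNC2, and 4 in GATA1 4-14, against the same shares of all genes. Those higher in GATA1 4-14 were KCNG1, KCNIP3, KCNE3 and KCNJ12, with differences from -1.60 to -1.14. The second probe of KCNG1 differed by only -0.03. That of KCNJ12 differed by -0.07 and was not well above background on any clone array.

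Insulin-like growth factor genes had 3 of 20 called higher in GATA1 4-14, against 0.924% of all genes, and 0 in GATA1 5-13, against 0.603%. IRS2, an adapter of the insulin and IGF receptors, had log2 ratios of -1.92 and -1.76 in GATA1 5-13 and of -0.28 and -0.17 in GATA1 4-14, and IGFBP7 and IGFBP2, which bind IGFs, differed by -1.38 and -1.08. Of 35 serpin genes, 0 were called higher in GATA1 5-13 and 3 in GATA1 4-14, against the same shares of all genes. SERPINB9, the inhibitor of granzyme B, differed by -1.55 with 3 of 3 probes called, SERPINF1 by -1.73 and SERPINB1 by -1.06. Intermediate filament genes, listed with the keratins, had 1 of 59 called higher in GATA1 5-13 and 2 in GATA1 4-14, against the same shares of all genes. The first was KRT12, at least 1.52-fold, and the others were KRT18 with -1.93 and vimentin, VIM, with -1.40.

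Of 485 C2H2 zinc finger genes, 1 was called higher in GATA1 5-13 and 6 in GATA1 4-14, against 0.603% and 0.924% of all genes. All 7 lie on chromosome 19, but how many of the 485 lie there was not counted. ZNF558 differed by at least 5.23-fold in favor of GATA1 4-14, and ZSCAN18 had log2 ratios of -1.32 and -1.43 in GATA1 5-13 against 0.98 and 1.03. The others on that side were ZNF573, ZNF177, ZNF790 and ZNF345, and ZNF792 was higher in GATA1 5-13, by 1.10. Over the 71 lists, 12 had at least 3 called members, 32 had 1 or 2, and 27 had none. List medians ran from -0.48 to 0.58.

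Position on the chromosomes set the clones apart as well. Genes with a mean intensity above the median of all genes were taken in windows of 10 Mb of hg18 with at least 15 genes, and a window was named where its median difference was at least 0.2 away from 0 in the same direction in both orientations. Of 231 windows 16 were named, and in all 16 the median was lower in GATA1 5-13. They formed 3 blocks, on chromosomes 1, 8 and 18. Outside them 8234 genes had a median difference of 0.03, and 44.0% were lower in GATA1 5-13.

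On chromosome 1, all 11 windows from 0 to 110 Mb were named. Of their 457 genes 433 were lower in GATA1 5-13 (94.7%), with a median difference of -0.41 and a level of 75.3% of that in GATA1 4-14. The median log2 ratio to GATA1 Neg was -0.39 in GATA1 5-13 and -0.00 in GATA1 4-14, so that GATA1 4-14 was at the level of the control. The other 452 genes of the chromosome had a median of 0.02. The change was abrupt: of the 20 genes up to and with LRIG2, which starts at 113.47 Mb, 19 were lower with a median of -0.42, and of the next 20, from MAGI3 at 114.03 Mb, 12 were lower with a median of -0.01.

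Chromosome 18 had the deeper shift. Its windows from 0 to 20 Mb held 54 genes with a median difference of -0.52, a median log2 ratio to the control of -0.48 in GATA1 5-13 and of 0.03 in GATA1 4-14. All 41 of the genes above the brightness limit up to ZNF519, at 14.10 Mb, were lower in GATA1 5-13, with a median of -0.56. Of the 20 genes that follow, from ROCK1 at 16.78 Mb, 9 were lower and the median was 0.04. On chromosome 8, the 85 genes of the windows from 10 to 40 Mb had a median of -0.27, of which 74 were lower, with -0.19 in GATA1 5-13 and 0.07 in GATA1 4-14. Up to and with KAT6A, at 41.91 Mb, 86 of 99 genes were lower, and of the 20 genes after it 12 were lower with a median of -0.07. LRIG2, ZNF519 and KAT6A were chosen after the values were seen, and each lies on the short arm of its chromosome.

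Single genes could stand against their block. EPB41L3, at 5383392 to 5383451 on chromosome 18, and CLCA1 on chromosome 1 are 2 of the 3 genes called higher in GATA1 5-13 within the named windows, the third being L3MBTL4, and all 3 were under the brightness limit. The windows held 1116 of the 17755 genes and 20 of the 164 called higher in GATA1 4-14, among them TIE1, S1PR1, EPHA8 and GFI1, a transcriptional repressor, on chromosome 1. The ribosomal protein genes RPL22, RPL5 and RPL11 lie in the chromosome 1 windows, and TYMS, the thymidylate synthase gene on chromosome 18, differed by -0.92. Without the genes of these windows the medians were -0.21 over 78 ribosomal protein genes, 0.30 over 44 interferon-stimulated genes and 0.53 over 27 cholesterol genes. Only RNA was measured, and the DNA of the clones was not tested.

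**Figure D5:**
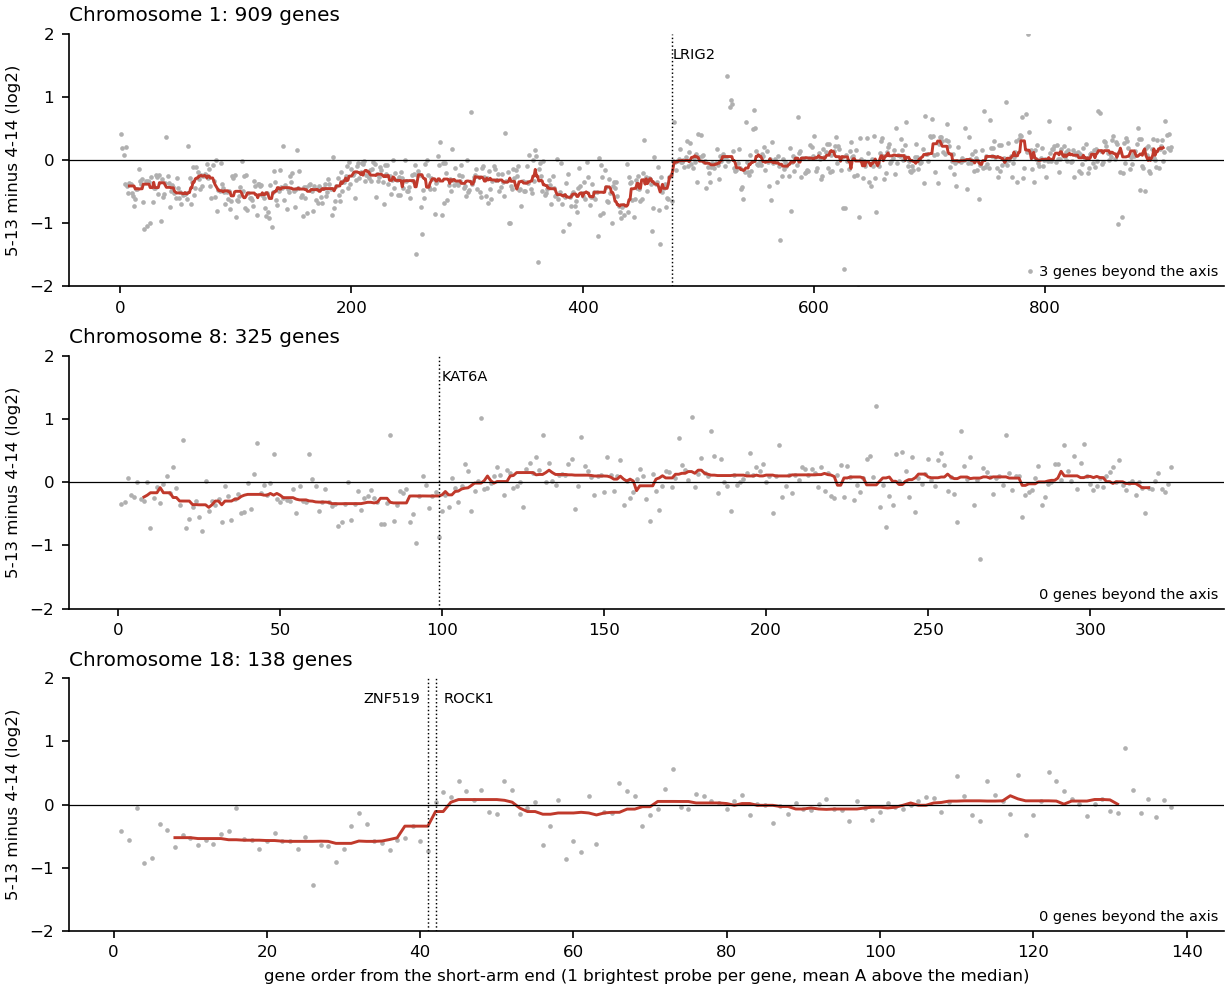
Difference between the clones (log2, GATA1 5-13 minus GATA1 4-14) for each gene in order along chromosomes 1 (909 genes, 3 beyond the axis), 8 (325) and 18 (138), with a red line for the running median of 15 genes and marks at LRIG2, KAT6A, ZNF519 and ROCK1. The running median lies below 0 from the start of each chromosome to about the marked gene and near 0 after it.

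The median of chromosome 21 over 87 genes lay below the control in both clones, at -0.19 in GATA1 5-13 and -0.29 in GATA1 4-14. Single genes could lie above it, such as LSS at 0.43 in GATA1 5-13. The median difference between the clones was small, at 0.09.

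GATA motifs in promoters were counted for the called genes. The letters AGATAA or TGATAA on either strand stood in the windows of 25 of the 83 matched genes called higher in GATA1 5-13 (30.12%) and in 26 of the 119 called higher in GATA1 4-14 (21.85%), against 19.37% of all genes of the table. The GATA1 difference between the clones was itself small, and a match says nothing of binding.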

How the data were processed

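Total RNA of Meg-01 clones and of GATA1 Neg was co-hybridized to Agilent arrays, and the authors deposited the output of Feature Extraction 9.5.3.1, with the mean and background intensity of every spot in both channels. The same files and a series-wide value table hold that program's log10 ratio, as deposited, whose p-values were not used. The authors combined arrays in Rosetta Resolver, which was not repeated. The series table differed from the scanner files' log10 ratio by at most 4.98e-06.

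Of 45015 spots per array 43376 were not controls, and between 135 and 152 outlier spots were left out. Intensities were corrected by normexp with an offset of 50, which makes the differences of dim probes smaller, then normalized by loess within arrays (limma 3.58.1, R 4.3.3), and replicate spots were averaged per probe, leaving 40974 of 41000 probes with a value on all arrays. Later steps used Python 3.11.15 with pandas 2.3.3 and matplotlib 3.10.9, and the calling step was tested on simulated data. Positions are those of the array annotation in hg18, which gives no exon. RefSeq accessions matched a current symbol for 17061 of 18035 (94.6%). Samples were grouped by title.

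Named genes were GATA1, the 12 largest called differences in each direction, the genes measured by RT-PCR, up to 6 called members of each list with at least 3 called, and others said to be chosen after their values were seen. Probes without a gene name and Y-linked genes were counted but not named, and some results are not reported here. Shifted lists were picked by a median of at least 0.2 in size with 75% of members one way, after values were seen. The members and lists were chosen with earlier results of these data known. Precision is limited by the number of arrays. Whether the 2 arrays of a clone used separate RNA extracts is not stated in the sources used here. The alternatives tried were no background correction, Feature Extraction's ratios, the series table, median centring, the knockdown channel alone, outliers kept, other filters on dim probes, other thresholds, left-out arrays, all probes of a gene averaged and limma over the 4 arrays.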

Additional observations from a re-analysis of the deposited data

Results flagged for a closer look

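In 26 named genes both arrays of GATA1 5-13 lay at least 0.5 log2 units on one side of GATA1 Neg and both arrays of GATA1 4-14 at least as far on the other, so that the knockdown clones went opposite ways against the same control. The difference was not tested, since each clone was 1 sample. For 11 genes GATA1 5-13 was the clone above the control. The differences between the clones were 4.57 for CT45A1, 4.47 for EPB41L3, 3.08 for CLCA1, 2.64 for PTN, 2.57 for CD24, 2.49 for CH25H, 2.13 for AQP3, 2.01 for IFIT1, 1.84 for IFIT2, 1.79 for CCL4 and 1.48 for INHBA, a subunit of activin.

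For the other 15 genes GATA1 4-14 was above the control and GATA1 5-13 below it. The differences were -4.62 for SPON1, -3.72 for SLC6A15, -3.70 for GPC6, -3.68 for WASF3, -3.27 for SEMA6D, -3.12 for RUNX1T1, -2.85 for GZMA, -2.76 for LUM, -2.68 for NAP1L3, -2.52 for MAGEA9, -2.42 for NRP1, -2.38 for ZSCAN18, -2.07 for PLEK, -2.04 for EIF2S3 and -1.73 for SERPINF1. In CLCA1, EPB41L3, SLC6A15, LUM and NAP1L3 the lower clone was not well above background on either array.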

How the results depend on the processing

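The 98 called probes of named genes kept their direction under all 12 alternatives that gave single differences. The call already required at least 2-fold the same way in both orientations of these same arrays. The kept direction was therefore largely fixed in advance. The count of probes higher in GATA1 5-13 moved from 172 to 80 without background correction, to 396 with Feature Extraction's log ratios or the series-wide table, and to 641 at a threshold of 1.5-fold. For GATA1 4-14 it moved from 282 to 122, 514 and 942 under the same settings. All 80 and 122 probes called without background correction were among the main ones. Leaving out 1 array or 1 dye orientation gave between 186 and 208 probes higher in GATA1 5-13 and between 308 and 337 higher in GATA1 4-14. Limma over the 4 arrays at an adjusted p of 0.05 took arrays as replicates, so its p-values do not measure variation between clones. With the replicate number (the dye orientation) as a block it called 6246 and 6931 probes. There the spread was only the gap between the differences of the 2 orientations. Without the block it called 1705 and 2161, and the spread was that between the arrays of a clone. Same-numbered arrays share only a dye orientation. The number of lists with at least 3 called genes moved from 12 to 4 without background correction and to 21 with Feature Extraction's ratios or the series table, and lay between 13 and 17 with an array or orientation left out. The number of named windows moved from 16 to 8 without the filter on dim genes, and lay between 16 and 19 with an array or orientation left out. The ribosomal protein median turned from -0.23 to 0.26 without GATA1 5-13 replicate 2 and to 0.27 without GATA1 4-14 replicate 1, and its lowest value was -0.69, without GATA1 4-14 replicate 2. These settings leave the dye orientations of the clones unequal. These medians kept their sign over 14 alternatives, between 0.37 and 0.75 for histone, 0.20 and 0.37 for interferon-stimulated, 0.37 and 0.53 for cholesterol, 0.25 and 0.54 for globin and -0.44 and -0.35 for metallothionein genes, while those of keratin and potassium channel genes kept it in 7, ephrin and semaphorin in 11, chemokine in 12 and serpin genes in 13. Window medians ranged between -0.42 and -0.24 on chromosome 1, -0.32 and -0.14 on chromosome 8 and -0.53 and -0.34 on chromosome 18, the smallest without the filter on dim genes. The medians without the named windows were added after the data were seen. Probes below background in both clones give no direction.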

Other observations

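Among transporters that are known to carry anticancer drugs, ABCB1, the efflux pump P-glycoprotein, had log2 ratios to GATA1 Neg of 0.71 and 0.87 in GATA1 5-13 and of -0.47 and -0.34 in GATA1 4-14, a difference of 1.20. SLC22A16, an uptake carrier of carnitine and doxorubicin, had 0.08 and 0.19 in GATA1 5-13 against 1.49 and 1.57 in GATA1 4-14, a difference of -1.39. Its second probe, not well above background on any clone array, differed by -0.12. For cytarabine, DCK, the kinase that activates it, and SLC29A1, a nucleoside transporter, differed by 0.05 and 0.07, and CDA was below background in all RNAs. These genes were chosen after their values were seen, and the differences had no test.

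Further called genes of other classes were PLK2, a polo-like kinase, with a difference of 1.71, and CEBPD, a transcription factor of inflammation, with 1.02. KIT, the stem cell factor receptor, had log2 ratios of -0.31 and -0.28 in GATA1 5-13 and of -1.07 and -1.05 in GATA1 4-14, a difference of 0.77 that missed the threshold, against the direction of CD34 and KDR.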
